A study of Mus musculus with 3 samples.

Results

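A set of 9 genes of hyaluronan metabolism was followed through RNA sequencing of 4T1 cells that over-express WISP2. They are the synthases Has1, Has2 and Has3, the hyaluronidases Hyal1, Hyal2 and Hyal3, the receptors Cd44 and Hmmr, and Ugdh, which makes a precursor. The 9 genes were picked by symbol, and all 9 have a row among the 34591 symbols of the count table. Their levels in CPM, the read count scaled to the total of its library, in these same libraries were known when they were picked, so the levels and the spread between libraries are described here and not tested.

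The 4T1 line is an established mouse mammary carcinoma line, and WISP2 (CCN family) is a matricellular protein that cells secrete. The series holds 1 group of 3 libraries, which the labels give the genotype WISP2 OE. The cells were grown in RPMI with fetal calf serum, and the labels describe transduction with packaged vector and puromycin selection, although the constructs that text names are of Wisp1. Empty-vector control libraries named in the design text were not analysed here, so nothing below is an effect of WISP2. The labels do not say whether the 3 samples came from separate cultures, so their spread may be technical. The names C1, C2 and C3 are those of the count columns, which match no single sample title. Wisp2 itself stood at 429, 384 and 454 CPM in libraries C1 to C3.

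Hyaluronan is a very long, unbranched polysaccharide of alternating glucuronic acid and N-acetylglucosamine. Synthases in the plasma membrane build it from UDP-sugars in the cytosol and push the growing chain out of the cell. Outside, hyaluronidases cut the chain, and receptors such as CD44 bind it, anchor the pericellular coat and signal to the cytoskeleton. In breast tumours, hyaluronan and CD44 are best known for their part in cell adhesion, migration and stem-like behaviour.

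The 3 synthase genes are paralogs, so their coding sequences are shown first, as the basis for telling their reads apart. The following 120 coding bases surround the longest exact run that Has2 shares with Has3, read 5′ to 3′ from GENCODE M21 transcripts. Capitals mark the bases that differ from Has2.
Has2: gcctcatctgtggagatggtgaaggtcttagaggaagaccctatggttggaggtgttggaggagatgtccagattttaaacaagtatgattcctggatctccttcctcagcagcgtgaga
Has3: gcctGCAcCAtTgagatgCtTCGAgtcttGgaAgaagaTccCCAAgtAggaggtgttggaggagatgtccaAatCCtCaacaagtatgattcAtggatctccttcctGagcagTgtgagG
Has1: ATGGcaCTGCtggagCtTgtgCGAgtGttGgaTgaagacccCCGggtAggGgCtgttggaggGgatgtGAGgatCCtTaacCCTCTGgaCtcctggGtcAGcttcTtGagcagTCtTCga
In this stretch Has3 differed from Has2 at 27 bases and Has1 at 45. Over all aligned coding bases Has2 and Has3 were 67.7% identical, and their longest shared run was 23 bases. Has1 was 56.9% identical to Has2 and 61.5% identical to Has3, with a longest shared run of 17 bases in each case. The hyaluronidase genes were further apart, at 49.2% to 50.1% identity, with shared runs of at most 15 bases.

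Among the synthases, which extend the chain, the libraries carried Has2 almost alone. Has2, the synthase of embryonic heart and of many stromal and tumour cells, stood at 96.8, 91.9 and 151 CPM in libraries C1 to C3. C3 was the high library, and its counting interval did not meet those of the other two (95% exact Poisson interval 148 to 155 CPM, against 92.3 to 102 CPM and 89.6 to 94.2 CPM). The mean was 113 ± 32.8 CPM (SD, n = 3). Has3, the second synthase, stood at 0.908, 0.731 and 0.967 CPM in C1, C2 and C3, from 16, 49 and 46 counts. These values overlapped within their counting intervals. Has1, the remaining synthase, had 0 counts in C1 and C2 and 1 count in C3. A count of 0 allows up to 0.170 CPM in C1 and 0.0448 CPM in C2, taking 3 counts as the limit. The 95% exact Poisson interval used for the other levels reaches higher, to 0.209 CPM in C1 and 0.0550 CPM in C2.

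To compare levels between genes, CPM was divided by exon length, giving CPM per kilobase. On that scale Has2 made up 99.4% of the summed synthase level in C1, 99.5% in C2 and 99.6% in C3. Summed over the libraries and per length, Has2 exceeded Has3 by 204-fold (95% counting interval 169 to 248). The excess over Has1 was 16049-fold, with a counting interval of 2880 to 633951 because Has1 rests on 1 count. Within libraries the log2 ratio of Has2 to Has3 was 7.57 ± 0.29 (SD, n = 3), or 6.98 when coding length was used in place of exon length. Part of the annotated Has3 exons, 352 bases or 5.52%, lies opposite exons of Chtf8, a gene at 218 ± 7.91 CPM. The strand setting of the counting is not stated, so reads from that overlap cannot be assigned, and the low Has3 level is uncertain to that extent.

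Of Hyal1, Hyal2 and Hyal3, only Hyal2 was expressed at more than a trace. Hyal2, a surface enzyme that cuts long chains into fragments, stood at 50.3, 44.6 and 51.3 CPM in libraries C1 to C3, a mean of 48.7 ± 3.59 CPM. C2 was the low library, and C1 and C3 overlapped within their counting intervals. Hyal1, a lysosomal hyaluronidase, stood at 1.19, 1.57 and 1.09 CPM in the same order, from 21, 105 and 52 counts. Hyal3, whose part in hyaluronan turnover is less clear, stood at 0.397, 0.298 and 0.378 CPM, from 7, 20 and 18 counts. Its 3 counting intervals overlapped. Per length, Hyal2 made up 96.6% ± 0.522 of the summed level of the 3 genes, Hyal1 2.25% ± 0.607 and Hyal3 1.20% ± 0.104.

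The low values of Hyal1 and Hyal3 carry a further limit. The 3 genes lie close together, and in GENCODE M21 50.8% of the exon bases of Hyal1 are also exons of Naa80 on the same strand. Hyal3 shares 6.06% of its exon bases with Naa80 and 8.16% with Hyal1. Naa80, an actin N-terminal acetyltransferase listed in the table as Nat6, stood at 5.30 ± 0.632 CPM. How reads in shared exons were counted is not given in the sources used here, so the levels of Hyal1, Hyal3 and Nat6 are uncertain. No exon of Hyal2 overlapped an exon of another annotated gene.

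**Figure D1:**
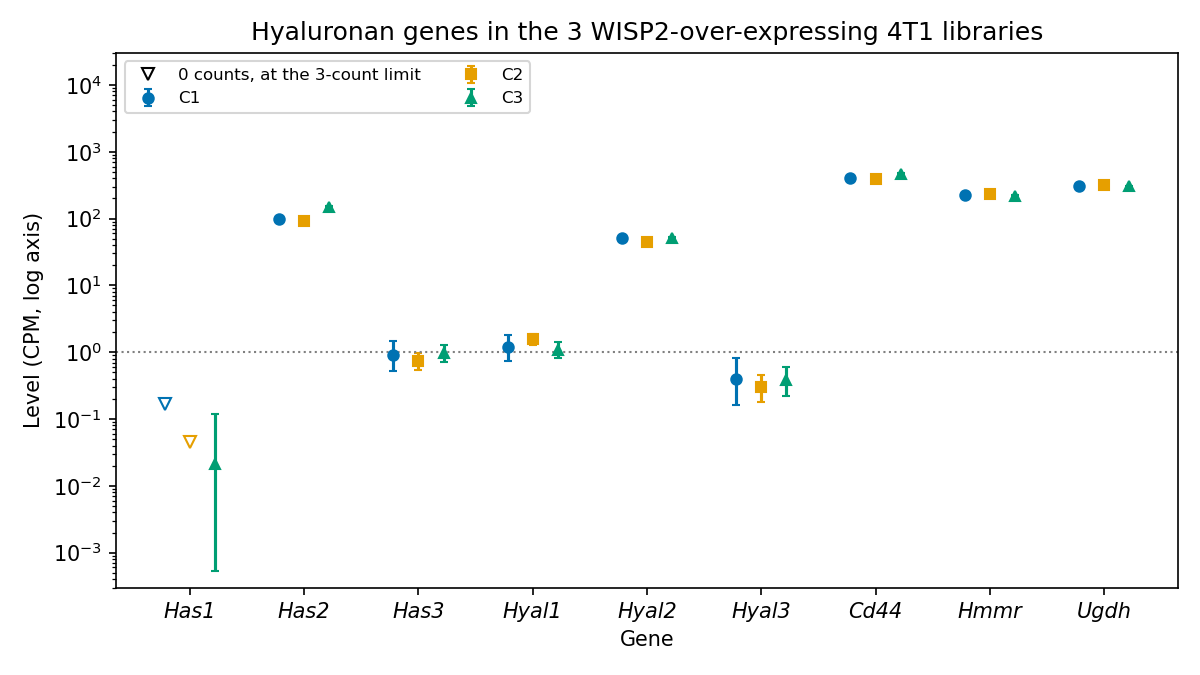
Level of the 9 hyaluronan genes in CPM (log axis) in libraries C1, C2 and C3; bars are 95% exact Poisson intervals, open triangles mark 0 counts at the 3-count limit, and the dotted line is 1 CPM. Has2, Hyal2, Cd44, Hmmr and Ugdh lie above 40 CPM in every library, and Has1, Has3, Hyal1 and Hyal3 lie below 2 CPM.

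Both receptor genes were abundant. Cd44, the main surface receptor for hyaluronan, stood at 405, 391 and 466 CPM in libraries C1 to C3, a mean of 421 ± 40.0 CPM. C3 was again the high library. Its counting interval, 460 to 472 CPM, lay above the 395 to 414 CPM of C1 and the 386 to 396 CPM of C2. Gene-level counts do not separate the standard form of Cd44 from forms with variant exons. Hmmr, or RHAMM, is both a hyaluronan-binding protein and a protein of the mitotic spindle. It stood at 225, 234 and 219 CPM in libraries C1 to C3, a mean of 226 ± 7.48 CPM. C3 was lowest, but its counting interval, 215 to 224 CPM, overlapped the 218 to 232 CPM of C1. Ugdh, which oxidises UDP-glucose to UDP-glucuronic acid, stood at 303, 314 and 304 CPM in C1, C2 and C3, a mean of 307 ± 6.27 CPM. It was the steadiest of the 9 genes, with a coefficient of variation of 2.04%. On the same strand 2.34% of its exon bases are also annotated to Gm43552.

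Of the 9 genes, 6 reached 1 CPM in every library, where 33.8% of all symbols did so. Per length, the order from the top was Cd44 at 62.1 ± 5.90 CPM per kilobase, Ugdh at 45.5 ± 0.928, Hmmr at 41.7 ± 1.38, Has2 at 26.7 ± 7.74 and Hyal2 at 14.8 ± 1.09 CPM per kilobase. These 5 lay above the median of 8.31 CPM per kilobase over the 11547 genes at 1 CPM that have a length. Cd44 was above 92.1% of those genes, Has2 above 80.4% and Hyal2 above 66.5%. Then came a gap: Hyal1 followed at 0.340 ± 0.0662 CPM per kilobase, Hyal3 at 0.184 ± 0.0269, Has3 at 0.136 ± 0.0192, and Has1 last.

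Each gene exceeded the next in that order in 3 of 3 libraries, with a mean log2 ratio larger than its SD. Some of these steps were small. The step from Ugdh down to Hmmr was 0.13 ± 0.03 on the log2 scale, and the order of that pair was exchanged when the longest transcript was used as the length. With coding length, Ugdh came before Cd44 and Has3 before Hyal3. The step from Hyal3 to Has3 also lay within counting error, at a summed ratio of 1.33 (95% counting interval 0.917 to 1.89). The step from Hmmr to Has2 was 0.86 in C1 and 0.99 in C2 but 0.18 in C3, so it was smallest in the library where Has2 was highest. The step from Hyal2 to Hyal1, at 5.44 ± 0.37 or 43.4-fold, separated the abundant genes from the scarce ones.

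**Figure D2:**
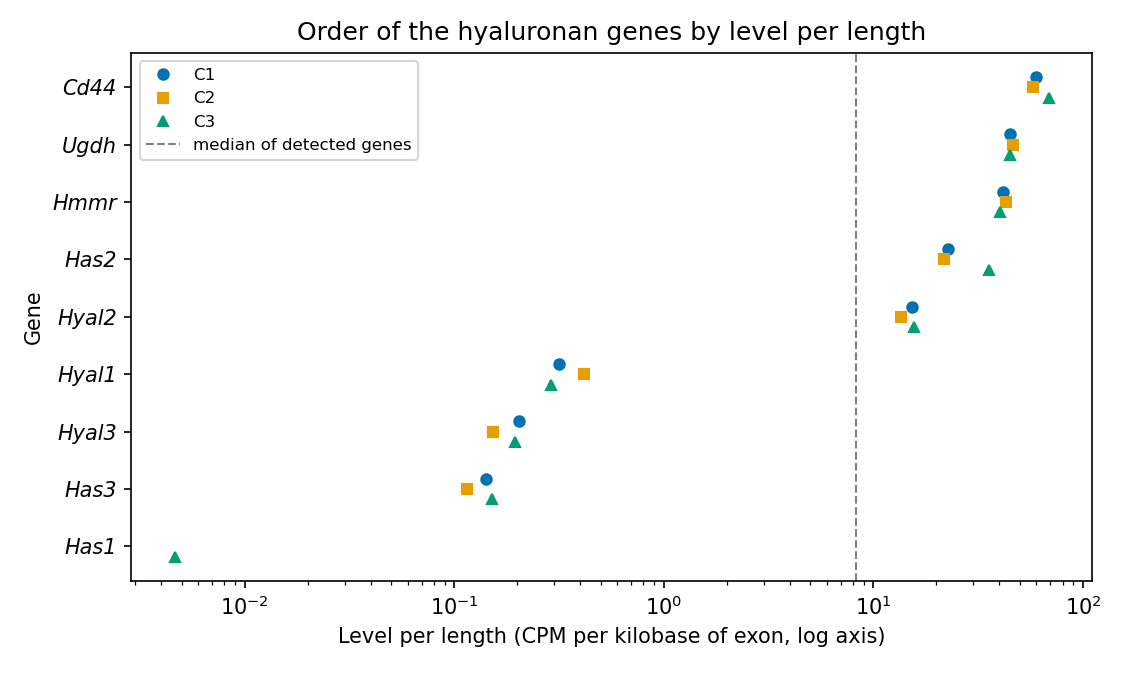
The 9 genes in order of level per length, in CPM per kilobase of exon (log axis), with 1 point per library; the dashed line is the median, 8.31, of genes at 1 CPM in every library. Has1 has 1 point, since C1 and C2 had 0 counts, and the C3 point of Has2 lies apart from its C1 and C2 points.

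Of the 6 genes at 1 CPM in every library, 1 differed by 1.5-fold or more between its highest and lowest library. Among all 11700 genes at that level, 2.34% did so, and 1.11% did so with C3 highest. The gene was Has2, with C3 over C2 at 1.64 (95% counting interval 1.588 to 1.701). It was known for this when the genes were picked, so the count is a description. Without C3 the ratio of Has2 was 1.05 and no gene of the 9 passed 1.5-fold. Of 3390 genes with a mean CPM within 2-fold of that of Has2, 3 had a ratio as large, namely Mmp9, Slc39a10 and Gpt2, which are named here because their values were seen. In bulk RNA, more cells that express Has2 and more Has2 RNA per cell cannot be told apart.

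The other abundant members differed less between libraries. The ratio of highest to lowest library was 1.19 for Cd44 (1.17 to 1.21) and 1.15 for Hyal2 (1.09 to 1.21), with counting intervals in parentheses. It was 1.07 for Hmmr (1.04 to 1.09) and 1.04 for Ugdh (1.01 to 1.07). Both libraries of a ratio were picked by these same values, so a lower bound above 1 does not establish a difference. For Ugdh the level intervals of C1 (295 to 311 CPM) and C2 (310 to 319 CPM) overlapped. The median over all genes at 1 CPM was 1.10. Among genes within 2-fold of the mean CPM of Cd44, the median was 1.07 and 4.31% had a ratio as large. The share with a ratio as large among genes of like level was 16.7% for Hyal2, 50.6% for Hmmr and 78.3% for Ugdh. Hyal1 had a ratio of 1.43, but its counting interval ran from 1.02 to 2.04. Has2, Hyal2 and Cd44 were highest in C3, whereas Hmmr and Hyal1 were lowest there, with C3 counting intervals that overlapped those of C1. For Hmmr the C3 interval lay below that of C2, the reverse of Has2 and Cd44. The members therefore did not share one pattern over the libraries.

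**Figure D3:**
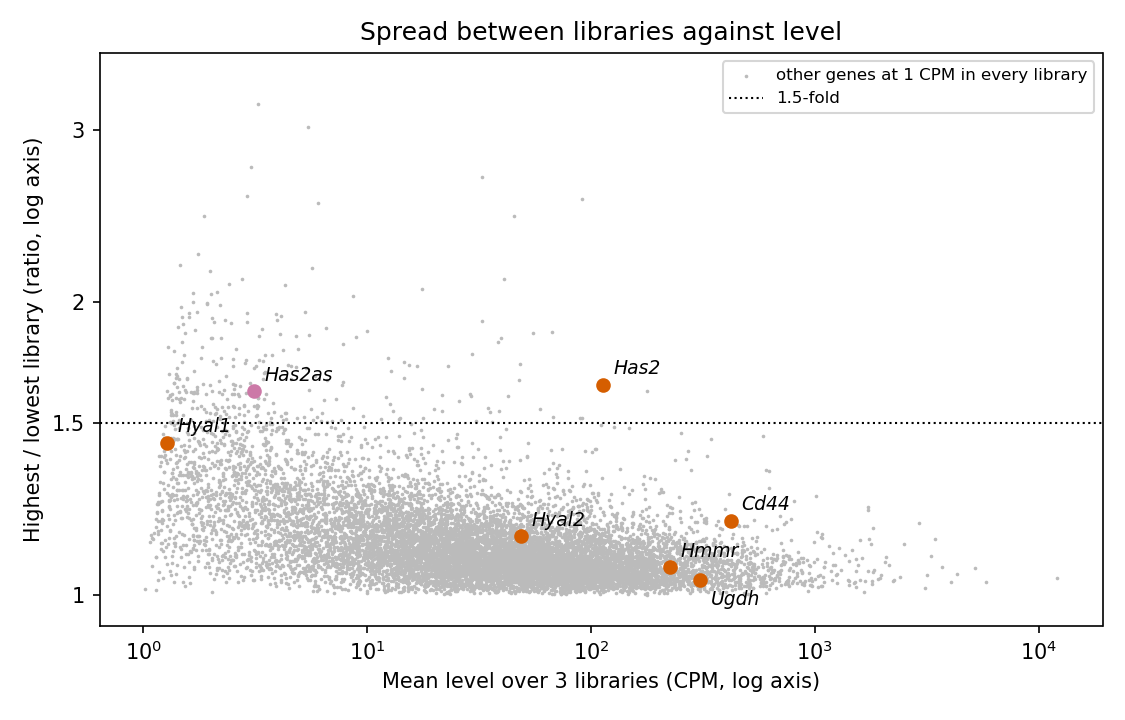
Ratio of the highest to the lowest library (log axis) against the mean level in CPM (log axis) for each gene at 1 CPM in every library; the 6 hyaluronan genes that reach this level are in orange, Has2as is in pink and the dotted line is 1.5-fold. Has2 lies at 1.64 above most genes of its level, and the other members lie below the line.

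The antisense gene Has2as (Has2os in newer annotation) was highest in C3 and lowest in C2, as was Has2. This long noncoding RNA is transcribed opposite the start of Has2 and has been described as a regulator of it. It stood at 2.84, 2.51 and 4.06 CPM in libraries C1 to C3, from 50, 168 and 193 counts. The counting interval of C1, 2.10 to 3.74 CPM, overlapped those of C2 and C3, so the place of C1 is not resolved. C3 over C2 was 1.62 (95% counting interval 1.31 to 2.00), against 1.64 for Has2. The log2 ratio of Has2 to Has2as per length was 3.70, 3.81 and 3.83 in libraries C1 to C3. Exons of both genes overlap over 182 bases, which is 11.2% of the Has2as exons. The library kit keeps strand, but whether the counting used it is not given in the sources used here, so Has2 reads in the Has2as count cannot be told apart from antisense RNA.

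Genes whose levels followed Has2 most closely over the 3 libraries were sought among 9135 genes with at least 10 CPM in every library. Likeness was the Euclidean distance between log2 CPM deviations from each gene's own mean. The 5 nearest were the serine protease gene Prss22 (distance 0.0557), the zinc importer gene Slc39a10 (0.07), the metalloprotease gene Adamts8 (0.0839), the arginine deiminase gene Padi1 (0.0861) and the beta-arrestin gene Arrb1 (0.0922). Prss22 stood at 12.4, 11.5 and 20.0 CPM in C1, C2 and C3. Slc39a10 stood at 90.2, 91.2 and 149 CPM in the same order. All 5 were highest in C3, which follows from choosing them by nearness to Has2. With 3 libraries such a match is a description of these libraries only.

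**Figure D4:**
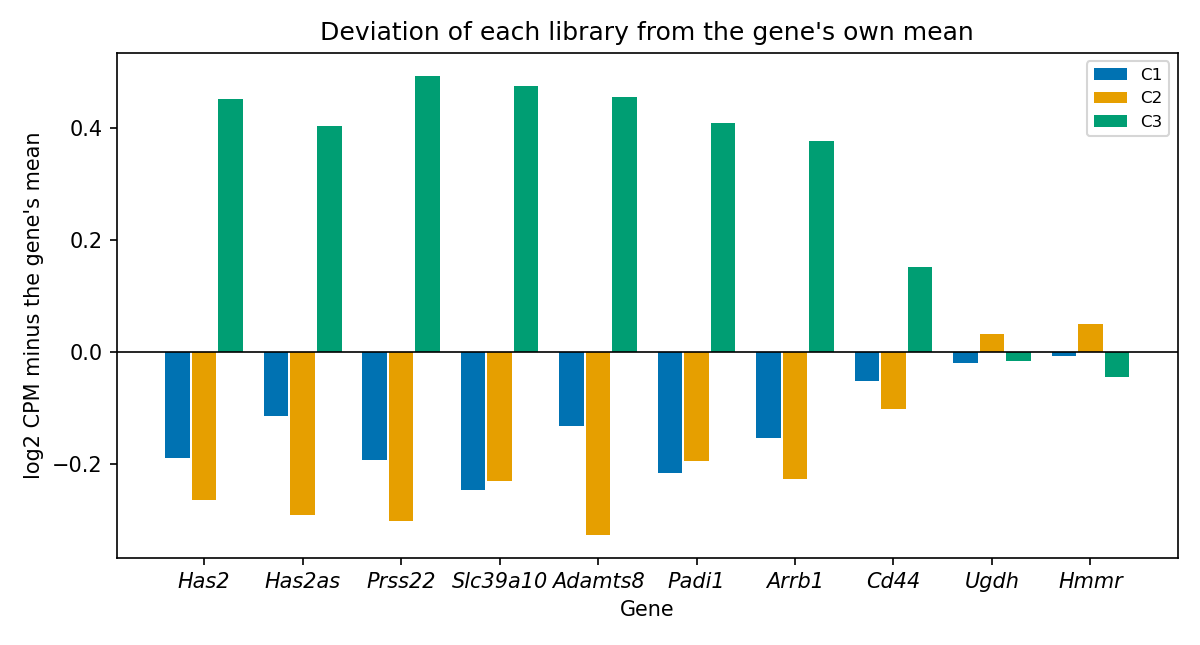
Log2 CPM in each library minus the gene's own mean, for Has2, Has2as, the 5 genes with the nearest pattern, and Cd44, Ugdh and Hmmr. Has2 deviates by 0.45 in C3, Cd44 by 0.15, Ugdh by -0.01 and Hmmr by -0.04.

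The supply of UDP-sugars from which the chain is built was expressed throughout. Of 11 genes that lead to UDP-glucuronic acid and UDP-N-acetylglucosamine, or that use the former, 10 reached 1 CPM in every library, against 33.8% of all symbols, and 0 differed by 1.5-fold, against 2.34% of all genes at 1 CPM. The most abundant per length were the glycolytic isomerase Gpi1 (460 ± 41.4 CPM), the phosphoglucomutase Pgm2 (84.0 ± 7.64 CPM), the pyrophosphorylase Uap1 (92.0 ± 3.14 CPM), which makes UDP-N-acetylglucosamine, and Ugp2 (58.1 ± 1.78 CPM), which makes UDP-glucose. Gfpt1, the enzyme of the first step of the hexosamine pathway, stood at 81.4 ± 1.49 CPM, whereas its paralog Gfpt2 had 1 count in all. Per length, Ugdh exceeded Ugp2, the step before it, by 1.27 ± 0.02 on the log2 scale (2.40-fold). That ratio was 2.45 on the log2 scale with coding length. The list's median was 14.8 CPM per kilobase, against 0.0117 over all symbols with a length and 8.31 over those at 1 CPM in every library.

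Of 8 other breakdown genes, 3 reached 1 CPM in every library, near the 33.8% of all symbols that did, and 0 differed by 1.5-fold (2.34% of all genes at 1 CPM). The glucuronidase gene Gusb stood at 188 ± 2.15 CPM, the hexosaminidase gene Hexa at 5.03 ± 0.759 CPM, and Tmem2, which encodes a surface protein with reported hyaluronidase activity, at 45.1 ± 3.20 CPM. Hyal4, Hyal5 and Spam1 had 0 counts, Hyal6 had 1, and Cemip, the other secreted or surface route of hyaluronan breakdown, had 3 counts in all under its older symbol 9930013L23Rik. The median of the 8 was 0.0015 CPM per kilobase.

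Of 9 other genes that encode reported hyaluronan receptors or binding proteins, 5 reached 1 CPM in every library (33.8% of all symbols) and 0 differed by 1.5-fold (2.34% of all genes at 1 CPM). C1qbp, a mostly mitochondrial protein also described as hyaluronan-binding, stood at 225 ± 8.68 CPM. The toll-like receptor genes Tlr2 and Tlr4, which can respond to hyaluronan fragments, stood at 15.6 ± 1.18 and 24.4 ± 1.97 CPM. The binding protein gene Habp4 stood at 23.2 ± 0.785 CPM, and Stab1 at 42.3 ± 4.40 CPM. The lymphatic receptor gene Lyve1, Layn and Habp2 had 0 counts, and Stab2, the hyaluronan scavenger receptor of liver sinusoids, had 2. The median of the 9 was 4.11 CPM per kilobase.

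Genes that link hyaluronan into a matrix were nearly silent. The 16 were the link proteins Hapln1 to Hapln4, the hyalectans, the inter-alpha-inhibitor chains, Tnfaip6 and Ptx3. None reached 1 CPM, where 33.8% of all symbols did so in every library. Of the 16, 6 had 0 counts in all libraries, including Hapln1, Hapln2 and Bcan. Among all 34591 symbols, 15794 had 0 counts, so the zeros do not set this list apart. Vcan, the large hyaluronan-binding proteoglycan of stroma, stood at 0.227, 0.254 and 0.231 CPM in libraries C1 to C3, from 4, 17 and 11 counts. The 3 others most abundant per length were the link protein gene Hapln4 with 24 counts, the pentraxin gene Ptx3 with 6 and the inter-alpha-inhibitor chain gene Itih4 with 4. Tnfaip6, the enzyme that transfers heavy chains onto hyaluronan, had 3 counts, all in C2. The summed level of the 16 genes was 0.681, 0.597 and 0.610 CPM in libraries C1 to C3. Their median was 0.00155 CPM per kilobase, against 0.0117 over all symbols with a length.

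Partners of Cd44 were expressed throughout, and 2 of them differed between libraries by more than Has2 did. Of 15 genes, all reached 1 CPM (33.8% of all symbols), with a median of 25.9 CPM per kilobase. Of these, 2 passed 1.5-fold (2.34% of all genes at 1 CPM). The lowest per length was Egfr, at 3.19 ± 0.158 CPM or 0.282 CPM per kilobase. The linkers of Cd44 to actin were led by Msn at 1276 ± 73.1 CPM, with Ezr at 378 ± 21.0 CPM and Rdx at 347 ± 14.6 CPM. Spp1, which encodes the ligand osteopontin, stood at 223 ± 20.2 CPM. Esrp1, a splicing factor that favours Cd44 variant exons, stood at 23.03, 24.9 and 31.4 CPM in C1, C2 and C3. Mmp9, a gelatinase that can dock on Cd44, stood at 69.3, 57.8 and 147 CPM, with C3 the high library as for Has2. Slc7a11, a cystine transporter that Cd44 variant forms stabilise, stood at 43.4, 65.6 and 26.8 CPM, with C3 the low library. The highest-to-lowest ratios of Mmp9 and Slc7a11 were 2.55 and 2.45, and both were known from earlier results.

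The spindle partners of Hmmr were all expressed. Of 8 genes, all reached 1 CPM (33.8% of all symbols), with a median of 55.03 CPM per kilobase, and 0 differed by 1.5-fold (2.34% of all genes at 1 CPM). The most abundant per length were the kinase gene Plk1 (156 ± 7.13 CPM), Tacc3 (226 ± 5.03 CPM), the dynein light chain gene Dynll1 (233 ± 3.47 CPM) and Tpx2 (272 ± 8.27 CPM), the spindle assembly factor that activates Aurora A. The DNA repair genes Brca1 and Bard1 were the lowest, at 8.99 and 9.99 CPM per kilobase, below the 41.7 of Hmmr. The list's median deviation on the log2 scale was 0.02, 0.02 and -0.03 in the same library order, and that of Hmmr was -0.01, 0.05 and -0.04. Hmmr and the list's median were both lowest in C3, but single partners differed: Aurka, Plk1 and Tacc3 were highest in C1 and Dynll1 in C3.

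Hmmr is itself known as a cell-cycle gene, so its promoter is shown beside the spindle list. RefSeq gives the 250 bases before its start at chr11:40733438-40733687 (GRCm38.p6, minus strand), read 5′ to 3′. Capitals mark the CCAAT box, searched as CCAAT and ATTGG so that both strands are covered; this box binds NF-Y and is common in promoters of cell-cycle genes.
Hmmr: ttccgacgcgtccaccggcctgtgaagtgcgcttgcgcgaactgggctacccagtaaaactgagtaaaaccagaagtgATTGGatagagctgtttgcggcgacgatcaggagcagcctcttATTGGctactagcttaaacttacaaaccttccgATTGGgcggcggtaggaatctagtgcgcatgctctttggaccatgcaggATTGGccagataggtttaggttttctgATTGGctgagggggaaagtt
The window held 5 boxes. Of 32851 promoter windows of the same length, 33.8% held at least 1 and 0.213% held 5 or more. Of the 7 hyaluronan genes with an entry, 3 held a box, with 1 each in Has1 and Hyal1. Of the 7 spindle partners with an entry, 5 held at least 1, with 2 each in Aurka and Dynll1. These matches describe letters in a window and not binding.

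The libraries matched the labelled cell type in their epithelial markers. In every library, 33.8% of all symbols reached 1 CPM. All 6 epithelial markers did so, with Krt8 at 1077 ± 80.8 CPM and Cdh1 at 444 ± 17.1 CPM. Their summed level was 3499, 3531 and 3821 CPM in C1, C2 and C3, so it was also highest in C3. Of the 6, 5 were highest in C3, whereas Cdh1 was lowest there, at 437, 463 and 431 CPM in C1, C2 and C3. The part of the summed epithelial level in the Has2 and Cd44 values was not tested. Of 10 leukocyte markers 2 reached 1 CPM in every library, against 33.8% of all symbols, with Cd3e at 0 counts. The summed level of the 10 was 20.2, 9.83 and 10.3 CPM in libraries C1 to C3. Lyz2 passed 1.5-fold, at 9.42, 3.12 and 3.78 CPM in the same order. Emr1 (1.76, 0.343 and 0.462 CPM) and Laptm5 (1.13, 0.209 and 0.336 CPM) were also highest in C1, but Ptprc was highest in C3. The summed leukocyte level was highest in C1, and its part in the Has2 and Cd44 values was not tested. Of 8 fibroblast markers only Pdgfra reached 1 CPM (summed level 19.7, 21.2 and 19.1 CPM), with Lum and Thy1 at 0 counts. None of 5 endothelial markers did (0.284, 0.0895 and 0.189 CPM).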

How the data were processed

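The deposited table gives raw counts, whole numbers of reads per gene symbol that the authors did not normalize, as the values themselves show. Per the submitters' processing notes, CASAVA 1.7, BWA, STAR, HTSeq and the build mm9 were used, with no role or order; the sources used here do not give the annotation, the strand setting or how shared reads were treated. The 3 columns match no single sample title and were assigned to the 1 group as a whole. Totals were 17630755 (C1), 67028365 (C2) and 47577315 (C3) counts, so 1 count is worth 0.0567, 0.0149 and 0.0210 CPM.

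CPM used column totals. Exon lengths came from GENCODE M21 (GRCm38, another build, used for lengths and overlaps only), with 31532 symbols matched, directly or through RefSeq synonyms. Intervals are exact Poisson for levels and exact conditional binomial (Clopper-Pearson) for ratios, both 95%. Like the limit of 3 counts, these intervals cover counting error only and not variation between preparations or cultures. PCR copies were not marked by molecular identifiers, so the intervals may understate even the counting error. A ratio of highest to lowest library is at least 1 by construction, and its interval is not adjusted for picking the libraries by their values. Log2 ratios between genes added 0.5 counts. With 1 group no test between groups was possible and no p-value is given. The ratio script was checked on simulated data. The genes and lists were chosen with earlier results of these data known. Named genes are all 9, genes overlapping one of the 9, and the 5 nearest in pattern. From each other list they are the 4 most abundant per length, those past 1.5-fold and up to 3 at 0 counts. A few more were named for their function or low level after their values were seen. A gene first placed in the list of other breakdown genes is not reported here and is left out of that list's counts and median. Alternatives were TMM (edgeR 4.0.16) and DESeq2 1.42.0 size factors, other levels, folds and lengths, 1 added count and leaving out each library. Python 3.11.15 with scipy 1.17.1, biopython 1.88 and R 4.3.3 were used.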

Additional observations from a re-analysis of the deposited data

How the results depend on the processing

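The count of hyaluronan genes at 1 CPM was 6, and it was 7 at a minimum of 0.5 CPM and 5 at 2 CPM. The count past 1.5-fold was 1, and it was 2 at a fold of 1.3 (Has2 and Hyal1) and 0 at a fold of 2, where 7.79% and 0.197% of all genes passed. The share of all genes past 1.5-fold was 0.591% with a minimum of 5 CPM and 18.5% with no filter beyond a count in every library, so that share depends on scarce genes. Leaving out each library gave counts of 0 to 1 among the 9 and 0.774% to 1.20% of all genes; these settings compare 2 libraries in place of 3, and the count of 0 was without C3. TMM and DESeq2 scaling left Has2 as the gene past 1.5-fold. TMM shifted the relative library sizes by only 0.629%, -0.113% and -0.0734% in C1, C2 and C3, and the DESeq2 size factors were also close to the totals. These scalings could therefore barely move a level or a ratio, and are a weak check. Under both scalings the 18 levels lay within 1 SD of the reported mean and the 16 ratios between libraries within their counting intervals. Of 47 log2 ratios between genes recomputed with another length or added count, 32 lay within 1 SD, 12 moved further and 3 changed sign: with coding length that of Cd44 to Ugdh was -0.21 and that of Hyal3 to Has3 -0.82, and with the longest transcript that of Ugdh to Hmmr was -0.22. No paired analysis was possible because the series has 1 group. Depth limits Has1, Has3, Hyal1 and Hyal3, with 1 to 178 counts in all.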
